A study of Mus musculus with 6 samples.

Results

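The genes described here build the primary cilium or are mutated in polycystic liver and kidney disease. They are the 47 genes, of the 21700 in the deposited table, whose names were on a list of polycystins, fibrocystin, intraflagellar transport proteins, BBSome subunits, transition zone proteins and polycystic liver disease genes. All 47 names were found, once each. Their RNA was measured in biliary epithelial cells, the epithelium of the bile ducts, sorted by flow cytometry from the livers of C57BL/6 female mice, all wild type. Pregnant mice at 8 days post coitum gave 3 libraries and non-pregnant mice gave 3, which sets early pregnancy against its absence. Neither the age of the mice nor the antibodies of the gate were known here. The labels do not say whether libraries of 1 group are separate mice, and the p-values therefore describe the spread among these libraries, possibly a technical one.

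The primary cilium is a single, non-motile projection of the cell membrane, built on a centriole, and in bile ducts it reaches into the lumen and senses flow, solutes and osmolality. Intraflagellar transport carries cargo along its microtubules, in complex B outward with kinesin-2 and in complex A back toward the base with dynein-2. The BBSome moves membrane proteins out of the cilium, and the transition zone at its base acts as a gate. Polycystin-1 and polycystin-2 form a receptor and channel complex, fibrocystin is a ciliary membrane protein, and loss of any of these 3 gives cysts of the bile ducts or the kidney. A second group of polycystic liver genes works in the endoplasmic reticulum, where their products fold and insert membrane proteins such as polycystin-1.

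The libraries held between 24448312 and 34285323 fragments recovered from the FPKM values, and these were biliary in profile. Epcam, an epithelial adhesion molecule, stood between 190 and 195 FPKM in pregnant and between 182 and 184 FPKM in non-pregnant libraries. Sox9, a biliary transcription factor, stood between 283 and 332 FPKM in pregnant and between 276 and 306 FPKM in non-pregnant libraries, and Krt19, a ductal keratin, between 343 and 386 FPKM in pregnant and between 220 and 337 FPKM in non-pregnant libraries. Non-pregnant library 3 stood apart, with the 17 biliary markers at a median of 0.725 of their mean in the other 5 libraries. Markers of other cell types were present too. The summed level of 12 macrophage markers was 109.6 to 183 FPKM in pregnant and 57.3 to 90.8 FPKM in non-pregnant libraries. Of the 10 that were tested, 3 passed the test described below, all higher, where 0.0613% of all tested genes passed higher. Csf1r and Cd68, which held most of the non-pregnant sum, changed little. Their means were 34.7 and 38.9 FPKM in pregnant and 32.5 and 38.1 FPKM in non-pregnant libraries. Groups stood fully apart for 8 of the 10, all higher in pregnancy, and the median log2 change of the 10 was 2.4. Cd5l, which passed, had means of 14.7 FPKM in pregnant and 0.918 FPKM in non-pregnant libraries. For 8 endothelial markers the sum was 15.7 to 22.8 FPKM in pregnant and 28.9, 204 and 14.2 FPKM in non-pregnant libraries 1 to 3. For 10 hepatocyte markers it was 2512 to 2870 FPKM in pregnant and 2911 to 3635 FPKM in non-pregnant libraries, and 1 of 9 tested passed, lower, where 0.0263% of all tested genes did. The marker that passed was Ahsg, with means of 186 FPKM in pregnant and 561 FPKM in non-pregnant libraries. Alb held most of the sum, with means of 2147 FPKM in pregnant and 2327 FPKM in non-pregnant libraries and overlapping groups. All 9 had a log2 change below 0. No marker of these 3 lists was at 0 in every library. Their part in the values below was not tested. In sorted cells measured in bulk, fewer cells of a type and less RNA per cell cannot be told apart.

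All 47 genes were detected in every library, with mean levels between 1.01 and 143 FPKM. FPKM scales fragments by exon length and library depth, and dividing by length lets levels of different genes be compared. Bicc1 and Pkhd1 were far above the others, with means over the 6 libraries of 143 and 133 FPKM, at the 98.5th and 98.4th percentile of the 11412 genes that averaged 1 FPKM or more and were tested. Bicc1 encodes an RNA-binding protein whose loss gives kidney cysts in mice, and Pkhd1 encodes fibrocystin. The 2 together made up 40.5%, 41.9% and 42.0% of the summed FPKM of all 47 genes in pregnant libraries 1 to 3, and 39.6%, 40.9% and 28.7% in non-pregnant libraries 1 to 3. Ganab, Prkcsh and Pkd2 followed at 48.5, 34.9 and 34.5 FPKM, and the remaining 42 genes all lay under 20 FPKM, 30 of them under 10. The median gene of the set stood at 7.02 FPKM, against 8.53 FPKM over all tested genes. At the low end, 6 genes had a mean under 2 FPKM. They were the transition zone genes Rpgrip1l and Ahi1, the BBSome genes Bbs5 and Bbs7, the nephronophthisis gene Nphp4 and Kif7, a kinesin of the cilium tip that acts in hedgehog signalling. Kif7 was the lowest at 1.01 FPKM, just above the minimum for testing, with 87 to 185 fragments in a library. Bbs5 had 86 to 177 fragments and Pkhd1 had 37952 to 68263.

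**Figure D1:**
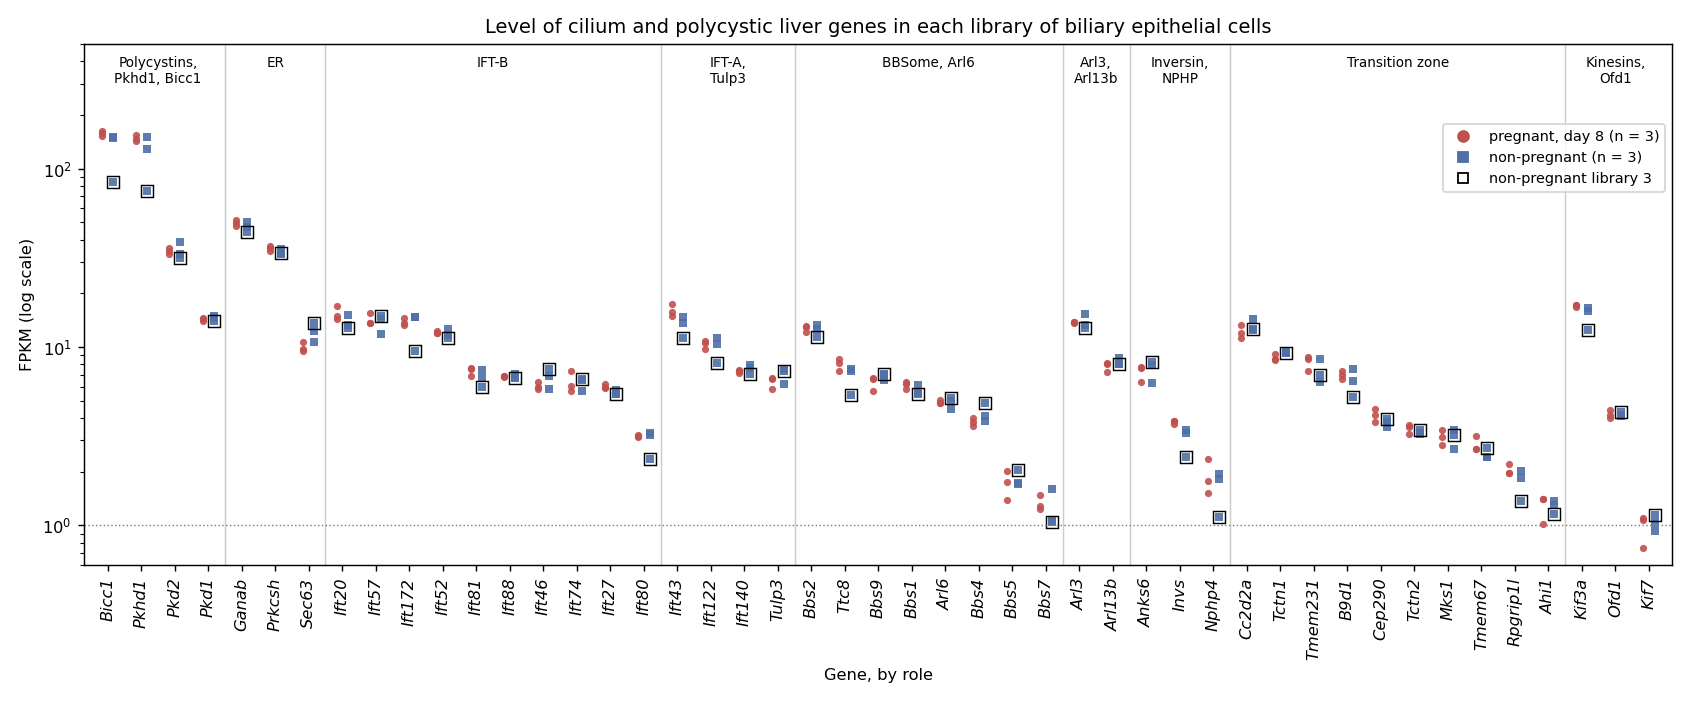
FPKM of each of the 47 genes on a log axis, by role, with the 3 pregnant libraries (circles) left of the 3 non-pregnant libraries (squares), and non-pregnant library 3 outlined. Bicc1 and Pkhd1 lie far above the other genes, and in non-pregnant library 3 they stood at 84.2 and 75.3 FPKM.

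Many cilium genes are known targets of RFX transcription factors, which bind a sequence called the X-box. It was searched for on both strands of the RefSeq promoter windows (build GRCm38.p6, the assembly behind mm10), which run from 250 bases before to 50 bases after a transcription start. Windows were found for 41 of the 47 genes, 45 windows in all, and not for 6 of them. The X-box half-site GTTGCC occurred in 18 of the 45 windows (40.0%), each of a different gene, against 12.8% of the windows of all tested genes. The longer form, GTTGCC followed by 0 to 3 bases and GGNAAC, contains the half-site and occurred in 5 of the 45 (11.1%), against 0.586%. A match describes the letters in the window, and no binding was measured. The 5 longer matches, with 20 bases on each side where the window allowed, are shown because they match the whole X-box, and capitals mark the match, on either strand:
Ahi1, chr10:20952548-20952596, plus strand: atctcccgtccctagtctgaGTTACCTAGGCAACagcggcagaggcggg
Bbs7, chr3:36613477-36613530, minus strand: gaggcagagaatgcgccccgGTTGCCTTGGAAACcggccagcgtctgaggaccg
Ift57, chr16:49699214-49699266, plus strand: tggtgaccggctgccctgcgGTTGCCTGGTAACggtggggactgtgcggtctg
Mks1, chr11:87853171-87853224, plus strand: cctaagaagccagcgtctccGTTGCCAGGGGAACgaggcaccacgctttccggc
Tctn1, chr5:122264411-122264444, minus strand: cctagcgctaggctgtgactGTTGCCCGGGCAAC

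In early pregnancy the mean levels of these genes were close to those of non-pregnant mice, and no gene of the set was called. None of the 47 passed the test over all 11412 genes (limma on log2(FPKM + 1), threshold of 0.05 on the Benjamini-Hochberg adjusted p), and the smallest adjusted p was 0.348. Over all tested genes 0.0876% passed, 0.0613% higher and 0.0263% lower. At an unadjusted p under 0.05 there were 2 of 47 genes, Ift43 higher and Sec63 lower, or 4.26%, where all tested genes gave 13.4% (7.09% higher and 6.3% lower). Limma-voom on the recovered fragments also called none of the 47, where it called 0.00889% of all genes, with 3 at an unadjusted p under 0.05, Invs being the third, against 13.1% of all genes. The group means of all 47 genes lay within 1.5-fold of each other, as did those of 95.3% of all tested genes. The log2 change ran from -0.26 for Sec63 to 0.38 for Pkhd1, with a median of 0.05, against a median of -0.02 over all tested genes. It was above 0 for 31 of 47 genes (66.0%), against 44.8% of all tested genes. Leaving out non-pregnant library 3 gave a median of 0.0072, with 25 of 47 above 0. No gene of the 47 then had an unadjusted p under 0.05, against 12.4% of all tested genes, and 0 genes in all passed the adjusted threshold. Leaving out non-pregnant library 2 instead gave 8 of 47 genes at an unadjusted p under 0.05 (17.02%), against 24% of all tested genes. At the adjusted threshold it gave 0 of 47, against 1.17% of all tested genes.

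The intervals show how large a change these data still allow. The 95% interval of the log2 change lay within 1.5-fold in both directions for 45 of the 47 genes (95.7%), against 85.6% of all tested genes. The 2 exceptions were Pkhd1, with an interval of -0.15 to 0.91, and Bicc1, with an interval of -0.14 to 0.84. The pseudocount of 1 FPKM narrows the interval of low genes, and with a pseudocount of 0.1 FPKM there were 40 of 47 (85.1%), against 76.9%, with Invs, Rpgrip1l, Nphp4, Bbs7 and Kif7 no longer inside. Without non-pregnant library 3 all 47 lay within 1.5-fold, against 91.4%. Pregnant and non-pregnant libraries stood fully apart for 6 of the 47 genes, or 12.8%, where all tested genes gave 22.1%. Of these 6, Bicc1, Ift27, Ift43, Invs and Kif3a were higher in all 3 pregnant libraries (10.6%, against 9.9% of all tested genes) and Tctn1 was lower (2.13%, against 12.2%).

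**Figure D2:**
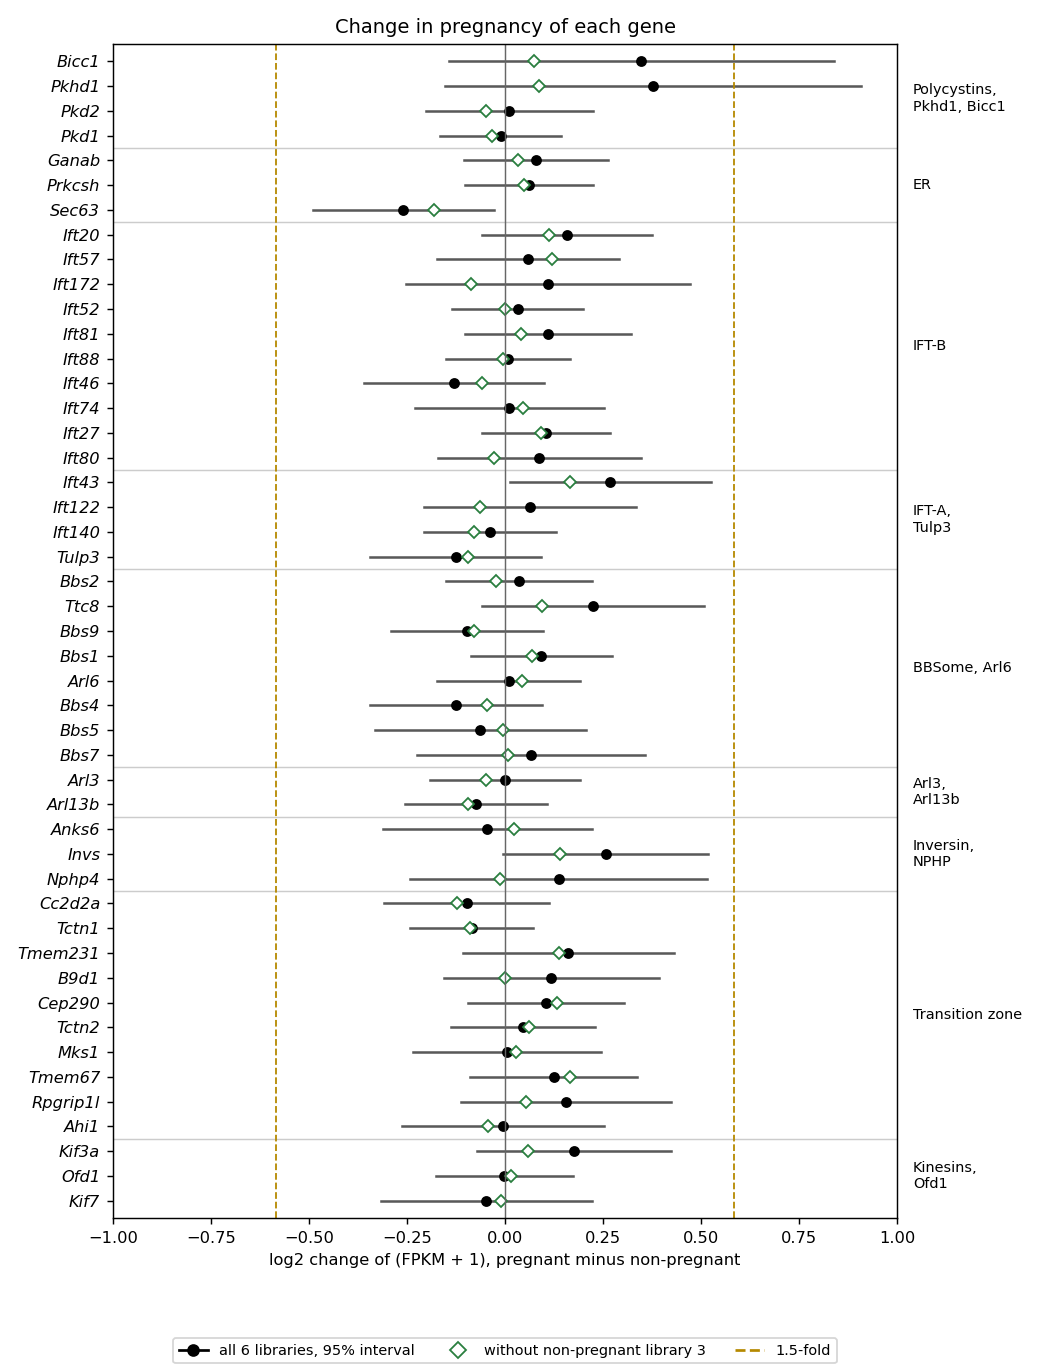
Log2 change of each gene on the log2(FPKM + 1) scale, pregnant minus non-pregnant, with its 95% interval (black, n = 3 against 3), and the change without non-pregnant library 3 (open diamonds). The intervals of Pkhd1 and Bicc1 alone cross the dashed lines at 1.5-fold, and their changes without that library were 0.09 and 0.07.

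The polycystin genes differed little between the group means, and Pkhd1 and Bicc1 were low in 1 non-pregnant library. Pkd1 (chromosome 17, 24549834 to 24596508) encodes the large receptor-like polycystin-1 and stood at 14.4, 14.6 and 13.9 FPKM in pregnant and 14.5, 14.8 and 14.0 FPKM in non-pregnant libraries. Pkd2, which encodes the channel polycystin-2, stood at 34.7, 35.8 and 33.3 FPKM in pregnant and 38.7, 33.1 and 31.5 FPKM in non-pregnant libraries. The groups overlapped for both genes, and the 95% interval of the log2 change was -0.17 to 0.14 for Pkd1 and -0.20 to 0.22 for Pkd2. Pkd1 varied by 1.07-fold between its highest and its lowest library, where the median tested gene varied by 1.33-fold. Its exons share 693 bases with Tsc2 on the opposite strand, and no source used here says whether counting used strand.

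Pkhd1 (chromosome 1, 20057779 to 20618064) stood at 143, 154 and 146 FPKM in pregnant and 128, 151 and 75.3 FPKM in non-pregnant libraries. Non-pregnant library 2 lay within the pregnant range, and library 3 had 0.522 of the mean of the other 5. The mean was 148 ± 5.89 FPKM in pregnant and 118 ± 38.7 FPKM in non-pregnant libraries (SD, n = 3 each), a ratio of 1.25 with a log2 change of 0.38 and an SE of 0.229 (limma adjusted p = 0.466). Bicc1 (chromosome 10, 70922832 to 71159700) stood at 152, 158 and 163 FPKM in pregnant and 151, 148 and 84.2 FPKM in non-pregnant libraries. The groups did not overlap, although pregnant library 1 and non-pregnant library 1 lay close together, and library 3 of the non-pregnant mice had 0.545 of the mean of the other 5. The ratio of the group means was 1.23 (limma adjusted p = 0.471). Without non-pregnant library 3 the log2 changes were 0.09 for Pkhd1 and 0.07 for Bicc1. With another library left out they reached 0.58 for Pkhd1 (without non-pregnant library 2) and 0.49 for Bicc1 (without non-pregnant library 1).

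Of the polycystic liver genes of the endoplasmic reticulum, Ganab and Prkcsh had group means close together and Sec63 a lower mean in pregnancy, with no call. Ganab and Prkcsh encode the 2 subunits of glucosidase II, which trims the sugar chains of newly made glycoproteins. Ganab stood at 51.8, 49.5 and 47.9 FPKM in pregnant and 46.9, 50.3 and 44.2 FPKM in non-pregnant libraries. Prkcsh stood at 36.7, 34.4 and 35.8 FPKM in pregnant and 33.3, 35.6 and 33.5 FPKM in non-pregnant libraries. Their log2 changes were 0.08 and 0.06, with 95% intervals that reached no further than 0.26 and 0.22. Sec63 (chromosome 10, 42761496 to 42832514) encodes a partner of the Sec61 channel, through which new proteins enter the endoplasmic reticulum. It stood at 9.51, 10.7 and 9.79 FPKM in pregnant and 12.3, 10.7 and 13.7 FPKM in non-pregnant libraries. The groups met at non-pregnant library 2, and the other 2 non-pregnant libraries were above every pregnant one. The mean was 10.01 ± 0.635 FPKM in pregnant and 12.2 ± 1.503 FPKM in non-pregnant libraries (SD, n = 3 each; log2 change -0.26 ± 0.0995, SE), the smallest p of the set (limma unadjusted p = 0.0323, adjusted p = 0.348).

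Among the genes of intraflagellar transport complex B, most log2 changes were small and above 0. Ift88, a core subunit of complex B whose loss removes the cilium, stood at 6.91, 6.78 and 6.91 FPKM in pregnant and 6.70, 7.10 and 6.68 FPKM in non-pregnant libraries. It varied by 1.06-fold over all 6 libraries, the least of the 47 genes. Of the 10 complex B genes 9 had a log2 change above 0, with a median of 0.07, and leaving out non-pregnant library 3 gave 5 of 10 and 0.02. Ift20, the subunit also found at the Golgi, stood at 14.8, 16.96 and 14.4 FPKM in pregnant and 13.3, 15.1 and 12.7 FPKM in non-pregnant libraries, with overlap between the groups. Ift27, a small GTPase of complex B that links it to BBSome export, stood at 5.91, 6.00 and 6.24 FPKM in pregnant and 5.46, 5.76 and 5.45 FPKM in non-pregnant libraries. Its groups did not overlap, with a ratio of means of 1.09 (limma adjusted p = 0.505). Ift46 was the complex B gene below 0, at -0.13, or -0.06 without non-pregnant library 3. Ift172 had 9.48 FPKM in that library and between 13.3 and 14.8 FPKM in the other 5.

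In complex A and its cargo adaptor Tulp3, changes lay on both sides of 0. Ift43 (chromosome 12, 86082541 to 86162459), a small subunit of complex A, stood at 14.8, 15.7 and 17.4 FPKM in pregnant and 13.6, 14.7 and 11.2 FPKM in non-pregnant libraries. Its groups did not overlap, by a narrow margin between pregnant library 1 and non-pregnant library 2. The mean was 15.99 ± 1.33 FPKM in pregnant and 13.2 ± 1.80 FPKM in non-pregnant libraries (SD, n = 3 each), and the log2 change was 0.27 ± 0.111 (SE; limma unadjusted p = 0.0423, adjusted p = 0.362). Without non-pregnant library 3 its log2 change was 0.16 (limma adjusted p = 0.463). Ift122, Ift140 and Tulp3 had log2 changes of 0.06, -0.04 and -0.13, and of -0.06, -0.08 and -0.10 without that library. Kif3a, a motor subunit of the kinesin-2 that drives complex B, stood at 17.1, 16.8 and 17.2 FPKM in pregnant and 16.7, 15.96 and 12.5 FPKM in non-pregnant libraries. Its groups did not overlap, with pregnant libraries between 16.8 and 17.2 FPKM and a wider spread in non-pregnant ones (log2 change 0.18 ± 0.107, SE; limma adjusted p = 0.467). Its log2 change was 0.06 without non-pregnant library 3.

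BBSome genes lay on both sides of 0, with 5 of 8 above it and a median of 0.02, or 4 of 8 and 0.00061 without non-pregnant library 3. Ttc8, the subunit also known as Bbs8, stood at 8.53, 8.13 and 7.30 FPKM in pregnant and 7.30, 7.503 and 5.41 FPKM in non-pregnant libraries. The groups overlapped around 7.30 FPKM, and the log2 change was 0.23 ± 0.122 (SE; limma adjusted p = 0.431), or 0.09 without non-pregnant library 3. The other 6 BBSome subunits and Arl6, the GTPase that brings the BBSome to the membrane, had log2 changes between -0.12 for Bbs4 and 0.09 for Bbs1. Bbs2 had the highest level, 12.8 ± 0.511 FPKM in pregnant and 12.5 ± 0.991 FPKM in non-pregnant libraries, and Bbs7 the lowest, 1.33 ± 0.123 FPKM in pregnant and 1.24 ± 0.319 FPKM in non-pregnant libraries (SD, n = 3 each). Arl3 and Arl13b, GTPases that act in releasing lipid-modified proteins inside the cilium, had log2 changes below 0. Arl13b stood at 8.16, 8.03 and 7.22 FPKM in pregnant and 8.74, 8.06 and 8.01 FPKM in non-pregnant libraries, with overlapping groups, and Arl3 had a log2 change of -0.00037, the smallest of the set.

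Inversin marks a compartment next to the transition zone, and its gene had the third smallest p of the set. Invs (chromosome 4, 48279760 to 48431954) stood at 3.86, 3.85 and 3.70 FPKM in pregnant and 3.44, 3.28 and 2.41 FPKM in non-pregnant libraries. The groups did not overlap, and non-pregnant library 3 was the lowest, at 0.666 of the mean of the other 5. The mean was 3.80 ± 0.0878 FPKM in pregnant and 3.05 ± 0.552 FPKM in non-pregnant libraries (SD, n = 3 each), and the log2 change was 0.26 ± 0.113 (SE; limma adjusted p = 0.378), and without that library the log2 change was 0.14. Anks6, a partner of inversin, and Nphp4 had log2 changes of -0.05 and 0.14, or 0.02 and -0.01 without non-pregnant library 3. Nphp4 varied most of the 47 genes, by 2.12-fold between pregnant library 3 at 2.35 FPKM and non-pregnant library 3 at 1.11 FPKM.

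Of the 10 transition zone genes 7 lay above 0, with a median of 0.08, and without non-pregnant library 3 there were also 7, with a median of 0.04. Tmem231, a membrane protein of the gate, stood at 8.81, 7.36 and 8.56 FPKM in pregnant and 6.34, 8.56 and 6.97 FPKM in non-pregnant libraries. Rpgrip1l, a scaffold of the gate, stood at 1.98, 1.96 and 2.21 FPKM in pregnant and 2.02, 1.85 and 1.37 FPKM in non-pregnant libraries. Tmem67, also called meckelin, stood at 2.69, 3.16 and 2.67 FPKM in pregnant and 2.41, 2.43 and 2.72 FPKM in non-pregnant libraries. The groups overlapped for all 3 genes, and their log2 changes were 0.16, 0.16 and 0.12, with Rpgrip1l at 0.05 without non-pregnant library 3. Tctn1, a secreted or membrane protein of the gate, was named after its values were seen, as the member lower in all 3 pregnant libraries. It stood at 8.54, 9.09 and 8.50 FPKM in pregnant and 9.24, 9.41 and 9.24 FPKM in non-pregnant libraries, a ratio of means of 0.937 (limma adjusted p = 0.565). Its exons share 1574 bases, or 19.0% of their length, with Hvcn1, a protein-coding gene on the opposite strand. Cep290, B9d1, Tctn2, Mks1, Cc2d2a and Ahi1 had log2 changes between -0.10 and 0.12.

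By promoter, the 18 genes with an X-box half-site showed a median log2 change of 0.06, between -0.08 and 0.18, and 13 of them lay above 0, or a median of 0.0041 with 10 above 0 without non-pregnant library 3. The 23 genes with a window and no half-site had a median of 0.01, between -0.26 and 0.38, with 13 above 0, or a median of -0.0011 with 11 above 0 without that library. The 5 genes shown above with the longer match had a median of 0.0058, and none of these genes passed the test.

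Across roles, 1 library stood apart. Non-pregnant library 3 was the lowest of the 6 for 24 of the 47 genes, or 51.1%, and for 28.5% of all tested genes. It stood under 0.8 of the mean of the other 5 libraries for 13 of the 47 genes (27.7%), against 18.9% of all tested genes. The summed level of the 47 genes was 728, 745 and 734 FPKM in pregnant libraries 1 to 3 and 705, 730 and 556 FPKM in non-pregnant libraries 1 to 3. Without Bicc1 and Pkhd1, the sum of the other 45 genes was 433, 433 and 426 FPKM in pregnant and 426, 431 and 397 FPKM in non-pregnant libraries. The low genes of that library came from several roles and included Invs, Ift172, Rpgrip1l, Ttc8, Ift43, Kif3a and Nphp4, whereas Sec63 and Bbs4 were highest there. In the same library the ductal keratin Krt19 stood at 0.636 and Epcam at 0.977 of the mean of the other 5. The spread within groups was near that of all genes, with a median coefficient of variation of 5.37% in pregnant and 10.48% in non-pregnant libraries, against 6.21% in pregnant and 11.2% in non-pregnant libraries over all tested genes.

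**Figure D3:**
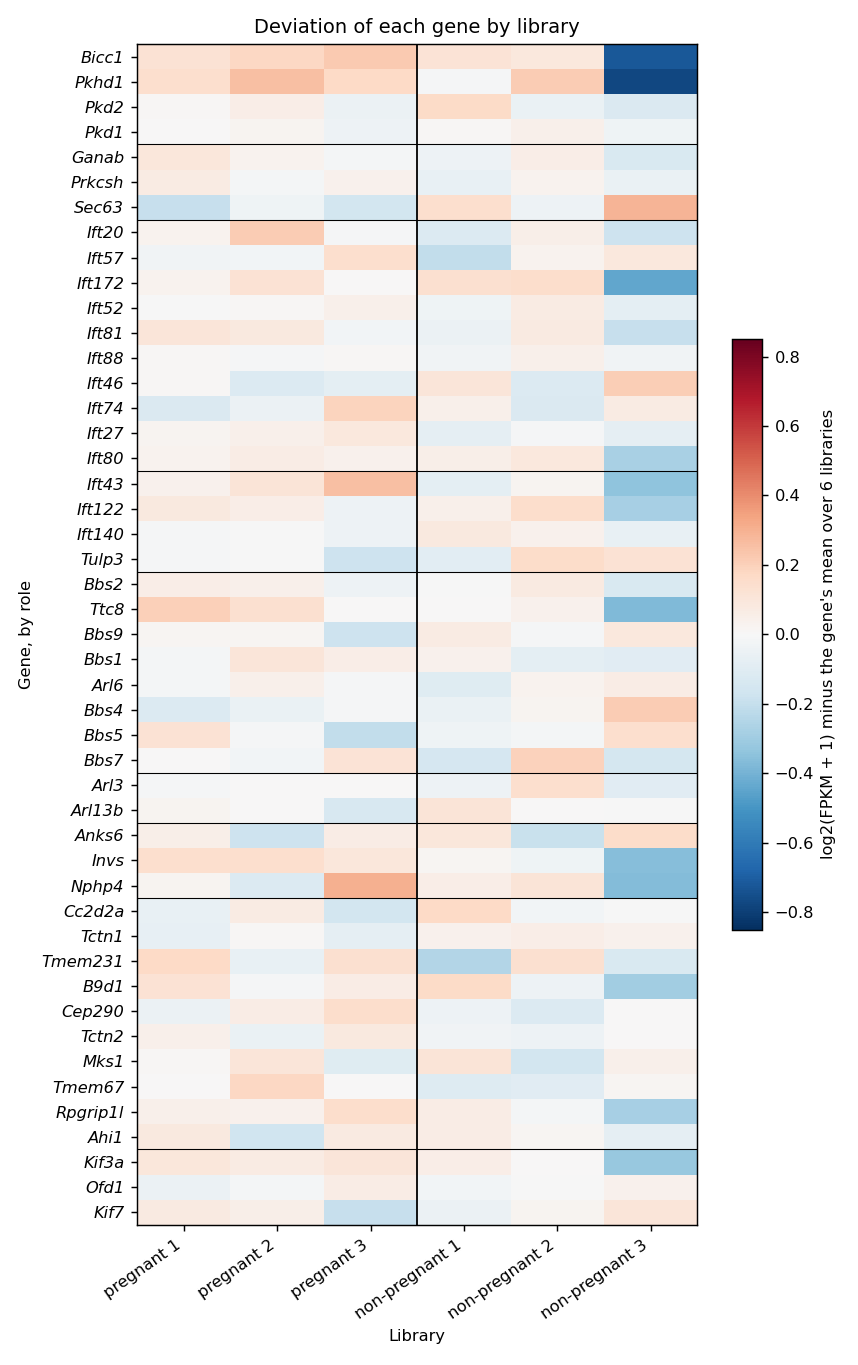
Deviation of each gene in each library from its mean over the 6 libraries on the log2(FPKM + 1) scale, with pregnant libraries left of the line. Red is above and blue below the mean, and the strongest blue is at Bicc1 and Pkhd1 in non-pregnant library 3.

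Other genes of the cilium, on 10 lists that the 47 do not share, gave no call either. Of 143 listed names 138 were in the table and 105 were tested, and none of the 105 passed (limma). At an unadjusted p under 0.05 there were 13 (12.4%), against 13.4% of all tested genes, with 10 higher (9.52%, against 7.09%) and 3 lower (2.86%, against 6.3%). The median log2 change of the 105 was 0.03, with 62 of them above 0, and leaving out non-pregnant library 3 gave 56 and a median of 0.02. Among the other intraflagellar transport and motor genes, with 12 of 16 above 0, the smallest p belonged to Dync2li1, a light intermediate chain of dynein-2. It stood at 28.2, 28.2 and 28.3 FPKM in pregnant and 22.6, 24.1 and 20.9 FPKM in non-pregnant libraries. The groups were apart, with a log2 change of 0.31 ± 0.0757 (SE; limma unadjusted p = 0.00347, adjusted p = 0.279), and it was 0.26 without non-pregnant library 3. Ift22, a GTPase of complex B, came next with a log2 change of 0.45 (limma adjusted p = 0.362), which was 0.24 without non-pregnant library 3.

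Of these 10 lists, motile cilium genes had the highest median log2 change, at 0.25 with 8 of 8 tested genes above 0, and it was 0.09 without non-pregnant library 3. Other polycystic disease genes then had the highest median, at 0.12. All 8 motile cilium genes were lowest in that library. The other 8 of the 16 in the table had a mean under 1 FPKM and were not tested. Foxj1, the transcription factor of motile cilia, stood at 55.2, 51.2 and 64.4 FPKM in pregnant and 35.8, 49.5 and 27.8 FPKM in non-pregnant libraries. Every pregnant library was above every non-pregnant one, with a log2 change of 0.61 ± 0.193 (SE; limma unadjusted p = 0.0138, adjusted p = 0.301), and of 0.42 without non-pregnant library 3. Tekt1, a tektin of ciliary microtubules, stood at 1.71, 1.46 and 2.22 FPKM in pregnant and 0.775, 1.41 and 0.403 FPKM in non-pregnant libraries (limma adjusted p = 0.308). The list of RFX factors and Foxj1 had a median of 0.12, with 6 of 7 above 0, or 0.04 with 4 of 7 without non-pregnant library 3. Of the RFX factors, Rfx5, known best for MHC class II genes, had a log2 change of 0.41 (limma adjusted p = 0.354), or 0.22 without that library, and Rfx1, Rfx2, Rfx3 and Rfx7 lay between -0.05 and 0.18.

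Receptors and signalling genes of the cilium gave the lowest median of these lists, at -0.12, with 5 of 7 tested genes below 0. Without non-pregnant library 3 it was -0.09, and the lowest median was then that of cilium disassembly, at -0.12. Sstr2, the somatostatin receptor through which bile duct secretion is held back, stood at 4.94, 5.35 and 4.70 FPKM in pregnant and 6.14, 6.33 and 7.95 FPKM in non-pregnant libraries. The groups did not overlap, with a log2 change of -0.37 ± 0.105 (SE; limma unadjusted p = 0.00768, adjusted p = 0.295), and of -0.27 without non-pregnant library 3. Itpr3, a calcium channel of the endoplasmic reticulum in bile duct cells, stood at 32.2, 31.9 and 31.3 FPKM in pregnant and 40.2, 33.9 and 38.6 FPKM in non-pregnant libraries (limma adjusted p = 0.327). Hedgehog genes had a median of 0.01 with 4 of 8 above 0, or 0.06 with 5 of 8 without non-pregnant library 3. The ligand gene Ihh and the ciliary receptor gene Gpr161 had log2 changes of -0.53 and 0.17 (limma adjusted p of 0.327 and 0.527). The groups overlapped for both genes, and their changes were -0.38 and 0.24 without non-pregnant library 3. Genes of the basal body had a median of -0.03 (7 of 18 above 0), with Fbf1 at 0.34 and Ehd1 at 0.22, or 0.14 and 0.09 without it. Genes of cilium disassembly had a median of -0.02 (2 of 5 above 0), with Kif2a at -0.13 and Nde1 at -0.16, and without it 0 of 5 lay above 0. Of the 10 listed disassembly genes, Aurka, Plk1, Plk4, Nek2 and Kif24 had means under 1 FPKM and were not tested. Their ratios of group means, pregnant over non-pregnant, were 1.39, 1.35, 0.966, 1.66 and 1.26 in that order.

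On the last 3 lists, other polycystic disease genes had a median of 0.14, with 5 of 8 above 0. The BBSome list had a median of -0.0055, or -0.03 without non-pregnant library 3. On it, Rabl2 was at 0.28 and Mkks at -0.18, or 0.16 and -0.14 without that library. The transition zone list had a median of 0.04, with Tmem17 at 0.32 and Tmem107 at 0.46 (0.25 without that library). Dzip1l, a basal body gene of recessive polycystic kidney disease, stood at 13.6, 12.3 and 14.0 FPKM in pregnant and 10.8, 11.8 and 7.90 FPKM in non-pregnant libraries. Its groups did not overlap, with a log2 change of 0.37 (limma adjusted p = 0.330) and of 0.22 without non-pregnant library 3, and Nos1ap of the same list was at 0.23. For comparison, the 17 biliary markers of the same libraries had a median log2 change of 0.28, with 16 above 0, and it was 0.13 without non-pregnant library 3.

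**Figure D4:**
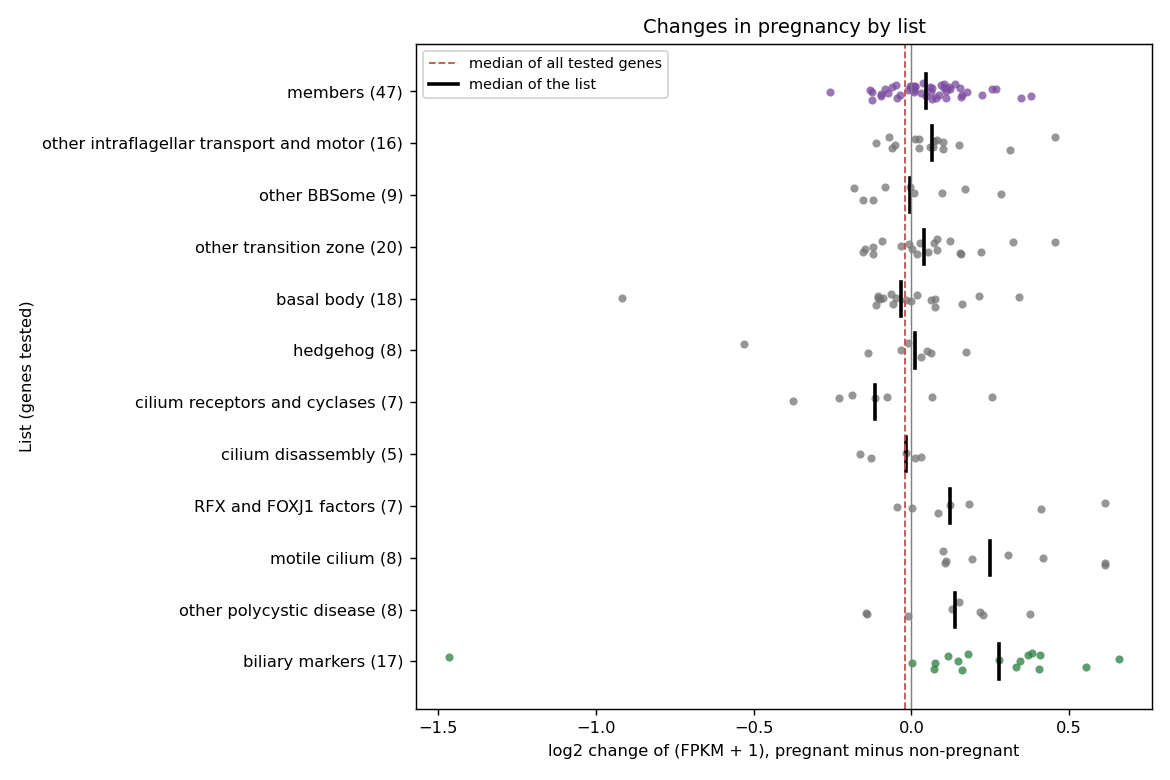
Log2 change of each tested gene, pregnant minus non-pregnant, for the 47 genes, 10 further lists of cilium genes and the biliary markers, with the median of each list (black bar) and of all tested genes (dashed). The 47 genes have a median of 0.05, the motile cilium genes 0.25 and the biliary markers 0.28, and no gene of these lists passed the test.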

How the data were processed

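The authors deposited FPKM values, 1 column per library. Tools in the submitters' processing notes, listed without roles, are STAR 2.7.9a, HTSeq 0.13.5, cutadapt 3.4 and DESeq2 1.30.1, and the build is mm10. Ribosomal RNA was depleted, per the labels' protocols. Groups came from the sample titles. Values times GENCODE vM21 exon length were whole multiples of 1 step per library for 98.5% of values above 0 (tolerance 0.01), and the multiples are the recovered fragments. Because FPKM is no count, limma 3.58.1 in R 4.3.3 was run on log2(FPKM + 1), with a trended prior and two-sided tests, for the 11412 genes averaging 1 FPKM or more, and p-values were Benjamini-Hochberg adjusted, threshold 0.05. Fold changes on this scale understate changes of low genes. The fit was tested on simulated data in which changed genes moved by more than 1.5-fold and no library was set apart. That test does not show how well smaller changes are found. Alternatives were other pseudocounts, filters, scalings, limma-voom, robust empirical Bayes, a replicate block and leaving out each library. Tables and figures used Python 3.11.15, pandas 2.3.3 and matplotlib 3.10.9.

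The members and lists were chosen with earlier results of these data known. Values in every library are given for 10 genes fixed by role (Pkd1, Pkd2, Pkhd1, Bicc1, Prkcsh, Sec63, Ganab, Ift88, Kif3a and Arl13b), for any member past the threshold and for the 12 with the smallest p, and 2 genes of each further list are named by smallest p. Of the 47 genes, 14 share exon bases with another gene on the opposite strand.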

Additional observations from a re-analysis of the deposited data

How the results depend on the processing

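No alternative called any of the 47 genes, and the smallest adjusted p of the set lay between 0.092 (without non-pregnant library 2) and 0.738. The count of all called genes, 10 as reported, was 0 with no filter on low values, 5 with robust empirical Bayes, 1 with limma-voom and between 0 and 133 with each library left out in turn. The median log2 change of the 47 genes lay between 0.0072 and 0.075 with a library left out. For the 18 genes named by the rule, 260 of 270 alternative values kept their sign. The 10 that did not belonged to Pkd1, Pkd2 and Ift88, whose reported changes were near 0. For Pkd1 they were 0.0079 with median-of-ratios scaling, 0.016 with quantile normalisation and 0.0072 with limma-voom, and with a library left out Pkd1 ran from -0.033 to 0.0084, Pkd2 from -0.048 to 0.095 and Ift88 from -0.0046 to 0.033. Tctn1, named after its values were seen, is not among the 18. With the replicate block 0 of the 47 and 13 of all genes passed, and the median stayed at 0.05. The titles number the libraries 1 to 3 in each group, but nothing says that the numbers pair them, so they were not taken as pairs. Deviations of same-numbered libraries had r of 0.068, 0.019 and -0.138 for libraries 1 to 3, and not every library correlated best with its own number. With 3 libraries a group, these values cannot decide whether the numbers are pairs. The causes of these shifts were not tested. Fragment numbers limit Kif7 and Bbs5 most, at 87 and 86 in their lowest libraries.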

Other observations

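Of the cilium list genes with a mean under 1 FPKM, which were not tested, 32 were above 0 in some library. Pregnant and non-pregnant libraries stood fully apart for 8 of them, which were chosen after their values were seen. Adcy5, Adcy8, P2ry12, Nek2, Kif17, Dnah11 and Spag6l were higher in all 3 pregnant libraries (7 of 32, or 21.9%, against 12.2% of all untested genes above 0 in some library), and Rfx4 was lower (1 of 32, or 3.12%, against 3.74%). Adcy5, an adenylyl cyclase, had the highest mean level of the 8. It stood at 1.34, 1.018 and 1.303 FPKM in pregnant and 0.675, 0.626 and 0.601 FPKM in non-pregnant libraries. Marker sums of other cell types also differed between these libraries, and their part in these values was not tested.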
